A study of Mus musculus with 8 samples.

Results

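The genes described here are the cytochrome P450 families Cyp1 to Cyp4, the UDP-glucuronosyltransferases (Ugt), the glutathione S-transferases (Gst) and the sulfotransferases (Sult) of mouse colonic tumors. They were taken by gene symbol from the array annotation, which gave 108 genes of the 19938 measured by a probe set with exactly 1 symbol. Cyp2 held 43 of them, Sult 16, Cyp4 13, Ugt2 8, Gstm 7, Cyp3 6, Gstt 4 and Cyp1 3. Gsta, Gstp and Gsto held 2 each, as did Gstk and Gstz together. No Ugt1 gene had a probe set of its own, and 1 member, Gstm3, had several probe sets, of which the brightest was used.

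RNA of 8 tumors was hybridised to MoGene 1.0 ST arrays, 1 array per tumor, and values are log2 signals. The first group held 3 tumors of the distal colon of K-rasG12Dint mice given azoxymethane (AOM), a colon carcinogen. The second held 2 AOM tumors of the distal colon of LSL-K-rasG12D/+ mice, in which a lox-stop-lox cassette precedes the mutant allele and whose sample titles read wt. The third held 3 serrated tumors of the proximal colon of K-rasG12Dint mice that also carried Ink4a/Arf-/-. They are called K-rasG12D AOM, LSL AOM and serrated tumors below. All 3 genotypes include a K-rasG12D allele, which in LSL mice is silent until Cre removes the cassette. The Cre line that activates it, the strain, sex and age, and the dose of AOM are not given in the sources used here. AOM, the Ink4a/Arf genotype and the colon segment changed together between serrated and AOM tumors, so their parts in any difference between these groups cannot be told apart. The K-rasG12Dint label also sets serrated tumors apart from LSL AOM tumors, which are part of the reference formed by all AOM tumors.

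Drug-metabolizing enzymes work in successive phases. Cytochromes P450 are haem enzymes that oxidise drugs, carcinogens, steroids and fatty acids. Transferases then attach glucuronic acid (Ugt), sulfate (Sult) or glutathione (Gst), which mostly makes the product more soluble and easier to export. These genes are best known from liver, but gut epithelium expresses its own selection, and many are controlled by nuclear receptors for xenobiotics, bile acids and vitamin D, by the aryl hydrocarbon receptor (AHR) and by the oxidant-responsive factor NRF2.

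Array medians over all genes ran from 4.17 to 4.31, so signals below about this level were in the dimmer part of the array. Serrated replicate 1 stood apart: the SD of its signals over genes was 1.77 against 2.00 to 2.13 on the other 7 arrays. Differences below come from 1 limma fit over all 19938 genes, ± is its standard error (SE) with 3 serrated, 3 K-rasG12D AOM and 2 LSL AOM arrays, and a gene passed at a Benjamini-Hochberg adjusted p under 0.05. The AOM reference is the mean of both AOM group means unless 1 group is named.

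Of the 108 genes, 19 rose and 2 fell in serrated against all AOM tumors, and 87 did not pass. Over all genes 3.62% rose and 5.76% fell, 9.38% in all, against 19.4% of the members. An unadjusted limma p under 0.05 was found for 39 members and for 4933 of all 19938 genes. The median difference was 0.23 (log2) for the members and 0.04 for all genes. After quantile normalization these medians were 0.14 and -0.03, and the share of members with a difference above 0 went from 78.7% to 65.7%. The serrated arrays all lay above the 5 AOM arrays for 28 members, or 25.9%, against 7.24% of all genes, and all below them for 3 members, or 2.78%, against 8.93%. The number of risen members depended on single arrays: it was 12 without K-rasG12D AOM replicate 1, 11 without replicate 2 of that group, 7 without LSL AOM replicate 1, 8 without LSL AOM replicate 2 and 7 without serrated replicate 2. The number that fell was 4 without serrated replicate 3. Of the 21 members that passed, 8 did so under every alternative run, namely Cyp2c55, Cyp2c66, Cyp2d26, Cyp3a13, Cyp4f14, Sult1d1, Gstm5 and Gstm7.

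**Figure D1:**
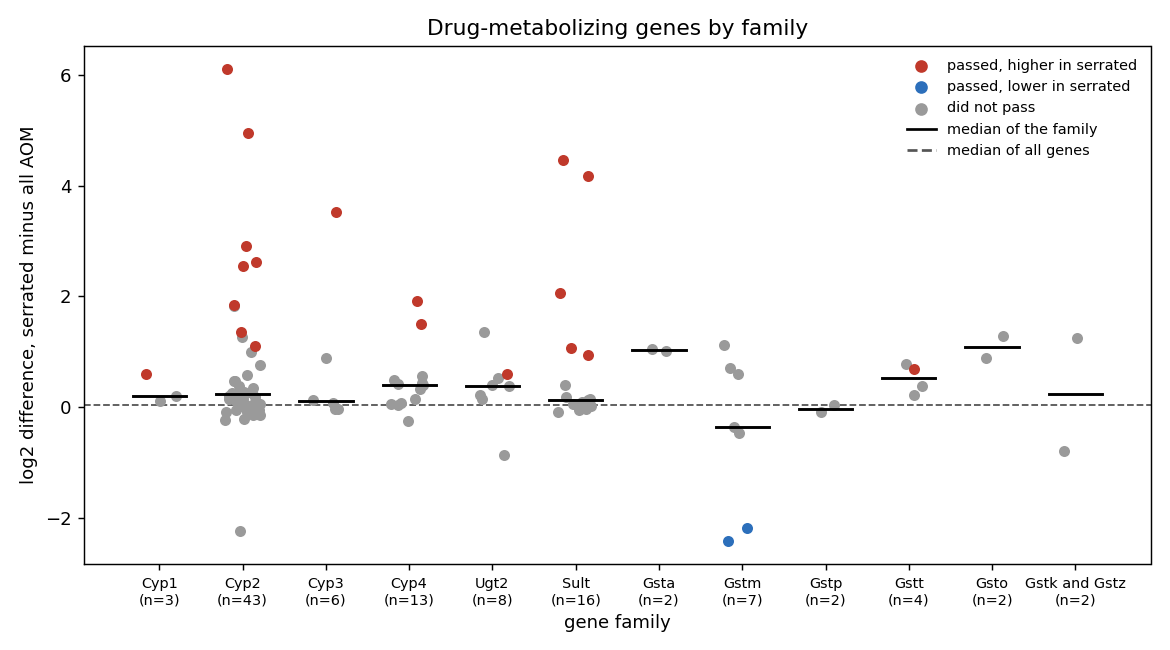
Log2 difference of each of the 108 genes between serrated and all AOM tumors (vertical axis), by gene family with its number of genes (horizontal axis). Each point is 1 gene, red or blue where it passed and grey where it did not, black bars are family medians and the dashed line is the median of all genes (0.04). The widest differences were in Cyp2, Sult and Cyp3, and the only blue points, 2 of 7 genes, were in Gstm.

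Among the 43 Cyp2 genes 8 rose and none fell in the limma fit, with a median difference of 0.23, which was 0.14 without serrated replicate 1 and 0.09 after quantile normalization. At an unadjusted p under 0.05 there were 12, to be read against the 4933 of all 19938 genes. The subfamily with the most members past the threshold was Cyp2c, with 4 of 13, and Cyp2d followed with 2 of 9. Cyp2s1 and Cyp2j6 were the others.

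Cyp2c55, a P450 that oxidises arachidonic and linoleic acid and is known from the large intestine, had the widest difference of all members. Its signal was 6.78, 10.81 and 10.70 on the serrated arrays, 2.83, 2.38 and 2.68 on the K-rasG12D AOM arrays, and 5.47 and 2.60 on the LSL AOM arrays. All serrated arrays were above all AOM arrays, with serrated replicate 1 far below the other two and LSL AOM replicate 1 far above the other AOM arrays. The difference was 6.10 ± 0.96, or 68.7-fold (limma adjusted p = 0.00663). It passed against K-rasG12D AOM tumors alone (6.80, adjusted p = 0.00892) and against LSL AOM tumors alone (5.40, adjusted p = 0.0343).

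Cyp2c65, a relative of Cyp2c55 expressed in the gut, read 5.48, 9.74 and 9.82 on the serrated arrays, 2.75, 3.72 and 3.22 on the K-rasG12D AOM arrays, and 4.62 and 2.46 on the LSL AOM arrays. The same 2 arrays stood apart within their groups as for Cyp2c55. It rose by 4.96 ± 0.97 (adjusted p = 0.0163), with adjusted p = 0.0637 without LSL AOM replicate 2 and 0.0811 without serrated replicate 2. Cyp2c66 read 4.41, 5.49 and 6.86 on the serrated arrays, 2.95, 3.03 and 2.86 on the K-rasG12D AOM arrays, and 3.13 and 2.87 on the LSL AOM arrays. The AOM arrays lay close together and the serrated arrays spread above them, and the difference was 2.62 ± 0.45 (adjusted p = 0.00961).

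Cyp2c55, Cyp2c65 and Cyp2c66 are consecutive protein-coding genes on chromosome 19 in RefSeq (GRCm38.p6). The next gene, Cyp2c29, did not pass (0.04, adjusted p = 0.874) and was dim on every array. The 9 Cyp2c genes that did not pass were the other measured genes of this cluster. Cyp2c genes are near copies of each other, so part of a probe set's signal may come from a neighbour. Their promoters are shown because these neighbours rose together. The 250 bases before each RefSeq start are on the plus strand at chr19:39006769-39007018, chr19:39060756-39061005 and chr19:39113648-39113897 of GRCm38.p6, and capitals mark matches to the motifs named below.
Cyp2c55: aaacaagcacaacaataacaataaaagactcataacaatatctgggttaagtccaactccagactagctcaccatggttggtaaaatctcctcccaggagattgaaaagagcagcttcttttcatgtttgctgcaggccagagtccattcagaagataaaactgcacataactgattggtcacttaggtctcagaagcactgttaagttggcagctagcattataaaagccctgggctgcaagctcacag
Cyp2c65: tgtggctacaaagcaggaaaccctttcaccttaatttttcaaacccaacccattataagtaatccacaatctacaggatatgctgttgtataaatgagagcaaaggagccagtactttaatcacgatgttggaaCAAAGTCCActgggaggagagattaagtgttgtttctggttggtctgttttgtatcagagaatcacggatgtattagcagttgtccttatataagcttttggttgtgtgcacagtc
Cyp2c66: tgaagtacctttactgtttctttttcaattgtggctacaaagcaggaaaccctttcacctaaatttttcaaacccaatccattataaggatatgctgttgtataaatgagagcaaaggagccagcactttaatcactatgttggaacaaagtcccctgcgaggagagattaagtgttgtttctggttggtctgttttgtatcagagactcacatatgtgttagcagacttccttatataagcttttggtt

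Motifs were searched on both strands in RefSeq windows of 300 bases, 250 before and 50 after each start, which were found for 93 of the 108 members in 111 windows. The letters were GCGTG for AHR, TGACNNNGC for NRF2, AGGTCA for the core that nuclear receptors share, CAAAGTCCA for HNF4, GTTAAT followed by any base and ATT for HNF1 and TTTATG for CDX. The HNF4 letters stood in 6.31% of members' windows and in 0.475% of all 32851 windows. They occurred in 7 windows, those of Cyp2c65, Cyp2c67, Cyp2c68, Cyp2c70, Cyp3a11, Cyp3a16 and Sult1b1. Of these genes, Cyp2c65 and Sult1b1 rose and the other 5 did not pass, and several are copies within 1 gene cluster. The HNF1 letters stood in 3.6% of members' windows and 0.399% of all. For AHR the shares were 19.8% and 32.4%, for NRF2 8.11% and 12.4%, for AGGTCA 23.4% and 16.3%, and for CDX 9.91% and 11.9%. By call, the 23 windows of risen members and the 85 of members that did not pass held AGGTCA in 8.7% and 28.2%. For NRF2 these shares were 17.4% and 3.53%, for AHR 26.1% and 17.6%, and for CDX 4.35% and 10.6%. For HNF4 they were 8.7% and 5.88%, and for HNF1 8.7% and 2.35%. In the 3 windows of the 2 fallen genes the shares were 66.7% for NRF2, 33.3% for AHR, 33.3% for CDX and 0.0% for AGGTCA, HNF4 and HNF1. The 23 windows of risen members came from 17 genes, so single windows weigh heavily in these shares. The NRF2 windows include those of Cyp2c65 and Cyp2c66, whose matches (on the other strand) began 8 bases before and 4 bases after the start and so do not lie within the stretches printed above. A match is a run of letters and does not show binding.

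In the Cyp2c65 window the HNF4 letters began 116 bases before the start. The window of Cyp2c66 held them 104 bases before the start with A9C, and that of Cyp2c55 112 bases before it with A3G, where positions count from 1 at the motif's first base and the motif's base comes first. A match with at most 1 such substitution stood in the 250 bases before the start in 7.05% of all windows and 21.6% of members' windows. In pairwise alignment of the 250 bases before the start, Cyp2c65 and Cyp2c66 were 74.6% identical, Cyp2c55 and Cyp2c65 51.8%, and Cyp2c55 and Cyp2c66 47.6%. Gaps counted as positions that differ. The identity of unrelated stretches was not computed, so the lower values do not show shared sequence. The substitutions were looked up after the match in Cyp2c65 was seen.

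Cyp2c23, an arachidonic acid epoxygenase that lies apart from this cluster, read 3.41, 4.59 and 4.85 on the serrated arrays and 2.61 to 3.29 on the AOM arrays. It rose by 1.36 ± 0.32 (adjusted p = 0.0323), but adjusted p was 0.0519 to 0.141 without any 1 AOM array or without serrated replicate 2. Cyp2d26 and Cyp2d34 belong to the subfamily that in humans oxidises many antidepressants and opioids. Cyp2d26 read 5.30, 7.82 and 7.19 on the serrated arrays and 3.56 to 4.36 on the AOM arrays, and rose by 2.91 ± 0.48 (adjusted p = 0.00846). Cyp2d34 read 8.31, 7.84 and 6.98 on the serrated arrays and 4.71 to 6.30 on the AOM arrays, and rose by 1.84 ± 0.40 (adjusted p = 0.0241). Without LSL AOM replicate 1, LSL AOM replicate 2, serrated replicate 1 or serrated replicate 2 its adjusted p was 0.0571 to 0.1. Cyp2d40, the gene between these in RefSeq, had all serrated arrays above all AOM arrays but did not pass (0.76, adjusted p = 0.0696).

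Cyp2s1, an epithelial P450 inducible through AHR, read 6.03, 8.18 and 6.18 on the serrated arrays and 3.56 to 4.71 on the AOM arrays. It rose by 2.54 ± 0.49 (adjusted p = 0.0155), and adjusted p was 0.0607 and 0.0517 without LSL AOM replicate 1 and 2. Cyp2j6, an intestinal fatty acid epoxygenase, was the 1 risen member whose groups overlapped: serrated replicate 1 at 7.17 lay below K-rasG12D AOM replicate 1 at 7.28. Its difference of 1.11 ± 0.29 (adjusted p = 0.0471) passed in the fits without 1 array only when serrated replicate 1 was left out, and was otherwise at 0.0619 to 0.183.

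Cyp2e1, the P450 that activates AOM in liver, read 3.73, 3.05 and 2.99 on the serrated arrays and 2.84 to 3.25 on the AOM arrays. The groups overlapped, every array was below its median, and the difference was 0.23 ± 0.20 (adjusted p = 0.522). Cyp2b10, the classical target of the receptor CAR, was chosen after its values were seen. It read 6.49, 6.29 and 4.28 on the K-rasG12D AOM arrays, 5.08 and 2.66 on the LSL AOM arrays, and 3.18, 2.36 and 2.05 on the serrated arrays. The difference passed against K-rasG12D AOM tumors (-3.15, adjusted p = 0.0368) and did not pass against all AOM tumors (-2.25 ± 0.65, adjusted p = 0.0646).

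In the 3 families beside Cyp2, 4 genes rose. Cyp3a13, the Cyp3a enzyme known from mouse intestine, had the smallest adjusted p of all members. Its signal was 6.14, 7.08 and 5.85 on the serrated arrays, 3.24, 2.65 and 3.36 on the K-rasG12D AOM arrays, and 2.73 and 2.45 on the LSL AOM arrays. The groups were far apart, with a difference of 3.52 ± 0.29, or 11.5-fold (adjusted p = 0.000494). The other 5 Cyp3a genes, which include the PXR target Cyp3a11 (0.89 ± 0.39, adjusted p = 0.193), did not pass and were dim on every array. Cyp3a11 read 3.63 on serrated replicate 1 and 1.39 to 1.95 on the other arrays.

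Cyp4 enzymes hydroxylate the end of fatty acid chains. Of 13 genes 2 rose, with a family median of 0.39 (0.24 without serrated replicate 1, 0.23 after quantile normalization). Cyp4f14, which inactivates leukotriene B4, read 5.16, 5.33 and 5.69 on the serrated arrays, 3.47, 3.51 and 3.60 on the K-rasG12D AOM arrays, and 3.12 and 3.75 on the LSL AOM arrays. The spread was widest in LSL AOM tumors (SD 0.45), and the serrated group was higher by 1.91 ± 0.19 (adjusted p = 0.00106). Cyp4f40 read 5.48, 6.13 and 7.13 on the serrated arrays and 3.70 to 5.22 on the AOM arrays, and rose by 1.50 ± 0.38 (adjusted p = 0.0421). Its adjusted p was 0.0844 to 0.128 without K-rasG12D AOM replicate 1 or 2, either LSL AOM array or serrated replicate 2. Cyp4b1, known from lung, did not pass (0.49 ± 0.18, adjusted p = 0.119).

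Of the Cyp1 genes, which oxidise polycyclic hydrocarbons and are classical AHR targets, 1 of 3 rose. Cyp1b1 read 3.52, 3.07 and 3.23 on the serrated arrays and 2.63 to 2.80 on the AOM arrays, a difference of 0.59 ± 0.15 (adjusted p = 0.0454) at signals below every array median. It passed in the fits without 1 array only when serrated replicate 3 was left out, and was otherwise at 0.0727 to 0.13. Cyp1a1 was dim on every array, with a difference of 0.10 ± 0.19 (adjusted p = 0.761).

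**Figure D2:**
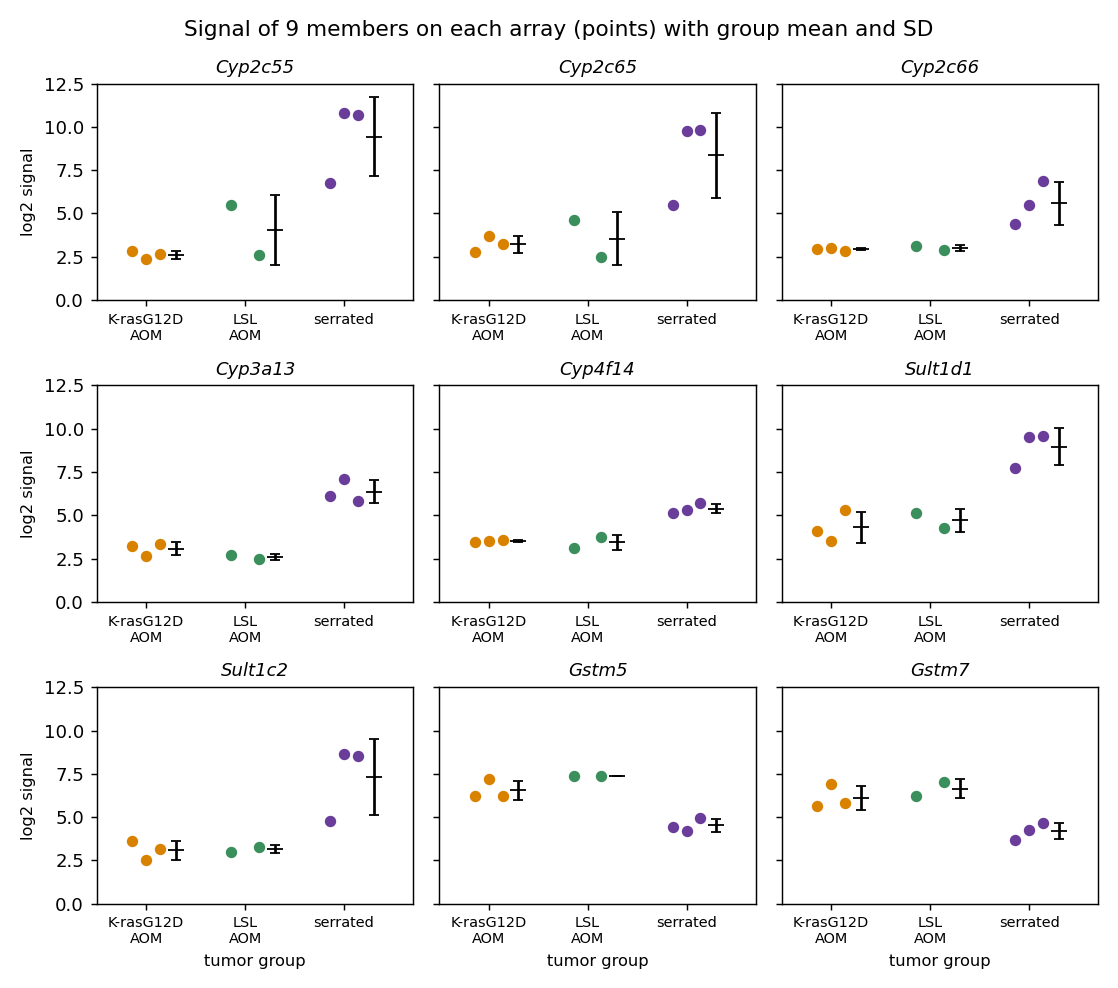
Log2 signal (vertical axis) of 9 genes on each array, by tumor group (horizontal axis), with 1 point per array and bars for the group mean and SD. Serrated replicate 1, the leftmost serrated point, lies well below the others for Cyp2c55, Cyp2c65, Sult1c2 and Sult1d1, and the serrated points lie below all AOM points for Gstm5 and Gstm7.

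Sulfotransferases transfer sulfate from the donor PAPS. Of 16 genes 5 rose and none fell, with 5 at an unadjusted p under 0.05, and the family median was 0.13 (0.04 after quantile normalization). The rise lay mostly in Sult1, with 4 of 6 genes and a median of 1.50. Sult1d1, which sulfates catecholamines and other phenols, read 7.75, 9.55 and 9.60 on the serrated arrays, 4.07, 3.54 and 5.28 on the K-rasG12D AOM arrays, and 5.15 and 4.24 on the LSL AOM arrays. All serrated arrays were clear of the AOM arrays, and the difference was 4.47 ± 0.52, or 22.2-fold (adjusted p = 0.00184).

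Sult1c2 read 4.76, 8.66 and 8.50 on the serrated arrays, 3.61, 2.53 and 3.14 on the K-rasG12D AOM arrays, and 3.00 and 3.30 on the LSL AOM arrays. Serrated replicate 1 was nearer to the AOM arrays than to the other serrated arrays. It rose by 4.18 ± 0.81 (adjusted p = 0.0156), and adjusted p was 0.0603 and 0.0529 without LSL AOM replicate 1 and 2 and 0.0768 without serrated replicate 2. Sult1b1, which sulfates thyroid hormones and simple phenols, read 7.04, 8.13 and 7.81 on the serrated arrays and 4.72 to 6.35 on the AOM arrays. It rose by 2.06 ± 0.39 (adjusted p = 0.0143), with 0.0582 without LSL AOM replicate 1 and 0.0768 without serrated replicate 2.

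Sult1a1, the main phenol sulfotransferase of many tissues, read 5.55, 5.44 and 4.90 on the serrated arrays and 4.09 to 4.83 on the AOM arrays, and rose by 0.94 ± 0.21 (adjusted p = 0.0294). In the fits without 1 array it passed only without K-rasG12D AOM replicate 3 or serrated replicate 3, and was otherwise at 0.0619 to 0.127. Sult2b1, which sulfates cholesterol and pregnenolone, read 6.76, 7.50 and 6.55 on the serrated arrays and 5.63 to 6.09 on the AOM arrays, and rose by 1.07 ± 0.23 (adjusted p = 0.0237). Its adjusted p was 0.0525 to 0.0836 without K-rasG12D AOM replicate 2 or 3, either LSL AOM array or serrated replicate 2. The other 11 genes did not pass, among them the oestrogen sulfotransferase Sult1e1 (-0.05, adjusted p = 0.834), and were dim on every array.

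Sult1b1 and Sult1d1 are adjacent coding genes on chromosome 5, and Sult1e1 follows them. The promoter of Sult1d1, the sulfotransferase with the widest difference, is shown for the motifs it held. The 250 bases before its start, on the minus strand at chr5:87569007-87569256 (RefSeq, GRCm38.p6), matched the CDX letters 231 bases, the HNF1 letters 79 bases and the AHR letters (on the other strand) 47 bases before the start, in capitals.
Sult1d1: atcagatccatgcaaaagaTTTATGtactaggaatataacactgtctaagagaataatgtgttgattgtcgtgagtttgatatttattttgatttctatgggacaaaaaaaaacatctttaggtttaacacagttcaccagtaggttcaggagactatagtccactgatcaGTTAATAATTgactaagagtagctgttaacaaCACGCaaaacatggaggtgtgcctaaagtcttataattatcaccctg

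Glucuronosyltransferases of the Ugt2 family handle steroids, bile acids and drugs. Of 8 genes 1 rose, and the median was 0.38 (0.24 after quantile normalization). Ugt2b5 read 2.37, 2.52 and 2.24 on the serrated arrays and 1.58 to 1.96 on the AOM arrays, a difference of 0.60 ± 0.15 (adjusted p = 0.0438) at signals below every array median. It passed in the fits without 1 array only without serrated replicate 3, and was otherwise at 0.0584 to 0.179. Ugt2b34, well above every array median, read 7.81, 9.41 and 9.43 on the serrated arrays and 7.55 to 8.94 on the AOM arrays and did not pass (0.52 ± 0.41, adjusted p = 0.467). Ugt2a3, a glucuronosyltransferase of gut epithelium chosen here after its values were seen, read 4.40 on serrated replicate 3, 2.63 and 1.75 on the other serrated arrays and 1.37 to 1.80 on the AOM arrays (1.36 ± 0.49, adjusted p = 0.125).

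Over all 19 glutathione S-transferase genes 1 rose and 2 fell, and the fallen genes were both of the mu class, Gstm, where 2 of 7 fell and none rose (limma, with 3 at an unadjusted p under 0.05) and the median was -0.37. That median ran from -0.85 without serrated replicate 3 to -0.18 without serrated replicate 2 and -0.09 without serrated replicate 1. Gstm5 read 4.42, 4.22 and 4.92 on the serrated arrays, 6.22, 7.18 and 6.22 on the K-rasG12D AOM arrays, and 7.36 and 7.35 on the LSL AOM arrays. It fell by 2.42 on the log2 scale (SE 0.26), or 5.37-fold (adjusted p = 0.00132). Gstm7 read 3.70, 4.23 and 4.63 on the serrated arrays, 5.65, 6.89 and 5.80 on the K-rasG12D AOM arrays, and 6.24 and 7.05 on the LSL AOM arrays. It fell by 2.19 on the log2 scale (SE 0.34), or 4.58-fold (adjusted p = 0.00662). For both genes all serrated arrays lay below all AOM arrays.

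Gstm5 and Gstm7 are adjacent in the Gstm cluster of chromosome 3. The other 5 genes of the cluster did not pass, with differences of -0.48 for Gstm6, 1.12 for Gstm3, 0.59 for Gstm2, 0.70 for Gstm1 and -0.37 for Gstm4. Gstm1 read 6.31, 7.72 and 8.66 on the serrated arrays and 6.40 to 8.13 on the AOM arrays, so the groups overlapped. Gstm genes are also near copies, and signal shared between them cannot be separated here. The promoter of Gstm5 is shown as that of the member with the widest fall. The 250 bases before its start, on the plus strand at chr3:107895604-107895853 (RefSeq, GRCm38.p6), matched the CDX letters 203 bases, the AHR letters 171 and 38 bases and the NRF2 letters 42 bases before the start, the last pair overlapping.
Gstm5: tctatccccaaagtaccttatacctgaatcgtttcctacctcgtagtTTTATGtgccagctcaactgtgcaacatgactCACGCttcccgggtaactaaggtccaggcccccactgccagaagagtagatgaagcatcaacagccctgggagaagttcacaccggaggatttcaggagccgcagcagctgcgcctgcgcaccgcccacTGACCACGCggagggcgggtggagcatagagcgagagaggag

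In the theta class, which detoxifies small halogenated compounds, 1 of 4 genes rose. Gstt1 read 3.94, 3.89 and 3.71 on the serrated arrays and 2.81 to 3.60 on the AOM arrays, a difference of 0.68 ± 0.18 (adjusted p = 0.0455) at signals below every array median. In the fits without 1 array it passed only without LSL AOM replicate 2 or serrated replicate 3, and was otherwise at 0.0697 to 0.16. None of the 8 genes of the alpha, pi, omega, kappa and zeta classes passed in limma, though 5 had an unadjusted p under 0.05. Gsta4, which conjugates the lipid peroxidation product 4-hydroxynonenal, read 9.44, 11.41 and 11.01 on the serrated arrays and 8.76 to 10.55 on the AOM arrays (1.02 ± 0.42, adjusted p = 0.169). Gstp1, the pi class enzyme common in tumors, read 9.68, 10.08 and 10.45 on the serrated arrays and 9.84 to 10.85 on the AOM arrays (-0.09 ± 0.27, adjusted p = 0.861).

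Gsto1, an omega class enzyme that reduces dehydroascorbate, read 8.24, 10.28 and 9.31 on the serrated arrays and 7.40 to 8.76 on the AOM arrays (1.29 ± 0.42, adjusted p = 0.0908). Gstk1, the kappa class enzyme of mitochondria and peroxisomes, read 5.78, 7.33 and 8.09 on the serrated arrays and 4.92 to 6.37 on the AOM arrays (1.25 ± 0.45, adjusted p = 0.124). Gstz1, the zeta class enzyme of tyrosine breakdown, read 4.01, 4.59 and 5.06 on the serrated arrays, below the 5.15 to 5.66 of the AOM arrays, but did not pass (-0.80 ± 0.25, adjusted p = 0.0785). Serrated replicate 1 was the lowest serrated array for Gsta4, Gsto1, Gstk1 and Gstm3. Without it all 4 passed, with differences of 1.61 (adjusted p = 0.00585) for Gsta4, 1.81 (0.0106) for Gsto1, 1.90 (0.0041) for Gstk1 and 1.66 (0.0312) for Gstm3. It was also the lowest serrated array for Gstm1 and Ugt2b34, which did not pass without it. The share of all genes that rose went from 3.62% to 6.09% in that fit.

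Of the 108 members, 77 had a mean signal at or under that of the median gene (4.26). Among these dim members 7 rose and 0 fell (limma, 17 at an unadjusted p under 0.05), 76.6% had a difference above 0, and the median was 0.15. All 9969 genes at or under that level gave a share of 74.5% and a median of 0.14, with 1081 at an unadjusted p under 0.05. Without serrated replicate 1 the shares were 63.6% and 57.1%, and after quantile normalization 57.1% and 49.6%. In the count of calls, 9.09% of the dim members passed against 2.58% of all dim genes, of which 149 rose. Among the 31 brighter members 12 rose and 2 fell, or 45.2%, with a median of 1.04. Of all 9969 brighter genes 573 rose and 1041 fell, or 16.2%, with a median of -0.19.

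**Figure D3:**
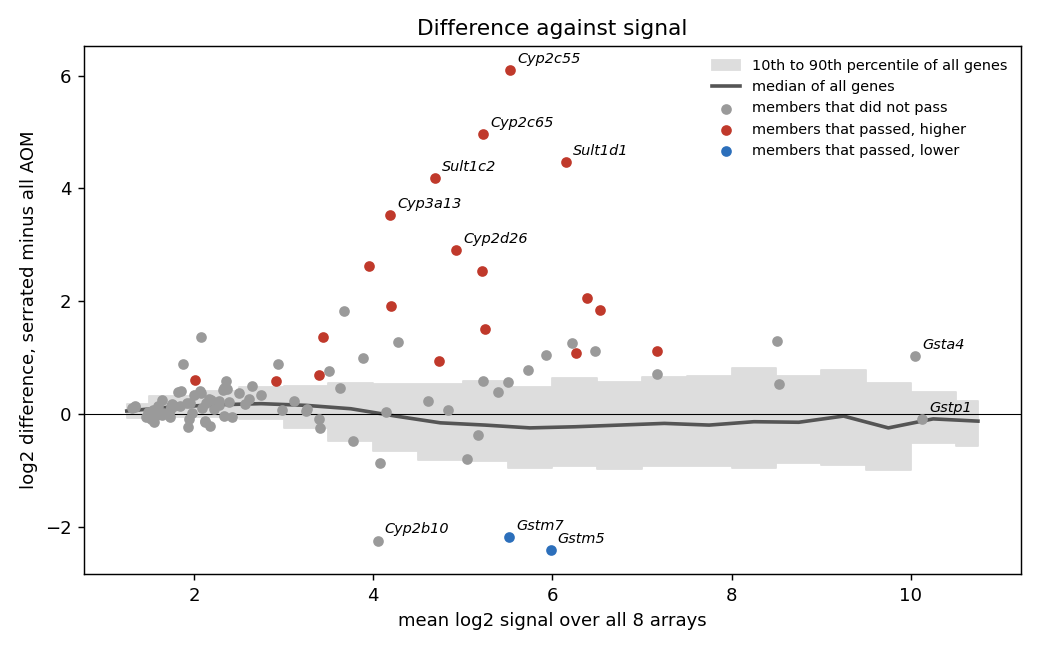
Log2 difference between serrated and all AOM tumors (vertical axis) against mean log2 signal over all 8 arrays (horizontal axis). Points are the 108 members, coloured where they passed, and the grey line and band are the median and the 10th to 90th percentile of all genes. Most members sit at the dim left end near the line, and the risen members above the median signal of 4.26 lie above it.

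Against K-rasG12D AOM tumors alone 14 members rose and 3 fell, with 2.46% and 3.99% of all genes, or 6.45% in either direction. Against LSL AOM tumors alone 9 rose and 2 fell, with 2.31% and 3.4% of all genes, or 5.71% in either direction. These comparisons share the serrated arrays. The 9 that rose against each group were Cyp2c55, Cyp2c66, Cyp2d26, Cyp2s1, Cyp3a13, Cyp4f14, Sult1b1, Sult1c2 and Sult1d1, and Gstm5 and Gstm7 fell against each. Cyp2c65, Cyp2d34, Cyp4f40, Gstt1 and Sult2b1 passed against K-rasG12D AOM tumors and had adjusted p of 0.053, 0.0966, 0.258, 0.22 and 0.0895 against LSL AOM tumors. Whether the differences from the AOM groups were unequal is the comparison of the AOM groups, given below.

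Both counts moved with single arrays. Without any 1 AOM array 4 to 8 members rose against K-rasG12D AOM tumors, and 6 without serrated replicate 2. The number that fell was 1 without K-rasG12D AOM replicate 2 or serrated replicate 2 and 5 without serrated replicate 3. Against LSL AOM tumors 2 to 4 rose without any 1 AOM array, 3 without serrated replicate 2, 17 without serrated replicate 1 and 15 without serrated replicate 3. The number that fell was 1 without either LSL AOM array or serrated replicate 2, and 4 without serrated replicate 3.

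Between K-rasG12D AOM and LSL AOM tumors no member passed in limma, nor did any of the 19938 genes (0.0%), with or without the trend and robust options. At an unadjusted p under 0.05 there were 4 members and 1666 genes. With array weights 0 members passed, while 67 genes were higher and 56 lower. The 4 members were Gstm5 (-0.82, adjusted p = 0.545), Gsta4 (1.18, adjusted p = 0.595), Cyp2w1 (-0.59, adjusted p = 0.51) and Cyp2a12 (-0.46, adjusted p = 0.545). The K-rasG12D AOM arrays all lay above the LSL AOM arrays for 9 members, or 8.33%, against 16.4% of all genes, and below them for 14, or 13.0%, against 15.7%.

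Gsta3, chosen after its values were seen, had the widest difference of the 108 members between the AOM groups (2.06, adjusted p = 0.673). It read 5.52, 8.56 and 5.26 on the K-rasG12D AOM arrays, 4.15 and 4.61 on the LSL AOM arrays and 5.15, 6.25 and 7.96 on the serrated arrays. K-rasG12D AOM replicate 2 was thus the highest of all 8 arrays. With 2 LSL AOM arrays and wide spreads such as this, a difference of that size was not separable from the replicate error.

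Genes that control or supply the enzymes were taken as lists. Of 19 regulators 9 rose and 1 fell in serrated against all AOM tumors, with a median of 0.66. In this list 52.6% passed, against 9.38% of all genes (3.62% higher and 5.76% lower), whose median was 0.04. The vitamin D receptor Vdr rose by 2.10 ± 0.21 (adjusted p = 0.000917), the intestinal factor Cdx2 by 2.56 ± 0.27 (adjusted p = 0.0013), and the bile acid receptor Nr1h4 by 1.81 ± 0.20 (adjusted p = 0.0015). The other regulators named here were picked once values were known. The xenobiotic receptor PXR, encoded by Nr1i2, read 6.19, 6.72 and 6.83 on the serrated arrays and 5.16 to 5.73 on the AOM arrays, and rose by 1.19 ± 0.19 (adjusted p = 0.00768). Hnf4a rose by 0.99 ± 0.18 (adjusted p = 0.0113, and 0.0548 without serrated replicate 2), and Foxa2 fell by 1.07 in log2 signal (adjusted p = 0.012, and 0.0663 without serrated replicate 2).

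Ahr, which encodes AHR, read 5.20, 6.07 and 6.16 on the serrated arrays and 6.29 to 7.11 on the AOM arrays and did not pass (-0.80 ± 0.23, adjusted p = 0.0685), but passed without serrated replicate 3 (-0.97, adjusted p = 0.0278). Nr1i3, which encodes CAR, did not pass (0.70 ± 0.19, adjusted p = 0.056), but passed without serrated replicate 3 (0.86, adjusted p = 0.0176), after quantile normalization (0.54, adjusted p = 0.027) and after median centring (0.76, adjusted p = 0.0417).

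Of 11 genes that supply cofactors for conjugation 4 rose and none fell in limma (7 at an unadjusted p under 0.05), with a median of 0.96. The share that passed was 36.4%, against 9.38% of all genes. The sulfate transporter Slc26a2 read 8.20, 9.07 and 9.26 on the serrated arrays and 5.31 to 7.57 on the AOM arrays, and rose by 2.31 ± 0.35 (adjusted p = 0.006). A second sulfate transporter, Slc26a1, rose by 0.73 ± 0.17 (adjusted p = 0.033), but did not pass without any 1 K-rasG12D AOM array, LSL AOM replicate 1 or serrated replicate 2 (adjusted p = 0.0582 to 0.149). The nucleotide sugar transporter Slc35d1 rose by 1.80 ± 0.43 (adjusted p = 0.0341), and in the fits without 1 array passed only without serrated replicate 1 (otherwise adjusted p = 0.0507 to 0.148). Of the 3 measured partners that pass electrons to P450 enzymes, none passed or had an unadjusted p under 0.05 in limma.

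Among 33 other enzymes of drug metabolism 16 rose and 2 fell, with a median of 1.06. The share that passed was 54.5%, against 9.38% of all genes. Monoamine oxidase Maoa rose by 2.11 ± 0.22 (adjusted p = 0.00122), carboxylesterase Ces2e by 3.93 ± 0.54 (adjusted p = 0.00365) and the microsomal transferase Mgst2 by 1.93 ± 0.27 (adjusted p = 0.00414). The 2 that fell, named after their values were seen, were the microsomal epoxide hydrolase Ephx1, by 2.29 in log2 signal (adjusted p = 0.0266), and the prostaglandin D synthase Hpgds, by 1.45 (adjusted p = 0.0236). Ephx1 did not pass without K-rasG12D AOM replicate 1 or 2, either LSL AOM array, or serrated replicate 1 or 2 (adjusted p = 0.0558 to 0.119). Hpgds did not pass without the same arrays other than serrated replicate 1 (adjusted p = 0.0528 to 0.109). Of 12 genes of the other Cyp families only the sterol hydroxylase Cyp27a1 passed, and fell by 1.57 on the log2 scale (adjusted p = 0.00576). This share of 8.33% was near that of all genes.

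Targets of NRF2 outside the enzyme families did not move together: of 13 genes 1 rose and 2 fell, with a median of 0.04. The share that passed was 23.1%, against 9.38% of all genes, and 6 had an unadjusted limma p under 0.05. Their differences ran from -1.67 to 2.11. Nqo1 did not pass, with differences of 1.48 to 3.12 in the fits without 1 array. Gpx2, a glutathione peroxidase of gut epithelium, fell by 1.67 on the log2 scale (adjusted p = 0.0194, but 0.0773 without LSL AOM replicate 1 and 0.0918 without serrated replicate 2). Hmox1, which degrades haem, fell by 1.59 on the log2 scale (adjusted p = 0.0154, but 0.0554 and 0.0582 without LSL AOM replicate 1 and 2 and 0.0774 without serrated replicate 2). All 4 AHR targets had a difference above 0, with a median of 0.83. The aldehyde dehydrogenase Aldh3a1, also the 1 gene of these 4 that passed, rose by 1.46 ± 0.36 (adjusted p = 0.0365). It did not pass without K-rasG12D AOM replicate 1 or 3, either LSL AOM array, or serrated replicate 2 or 3 (adjusted p = 0.0551 to 0.156).

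**Figure D4:**
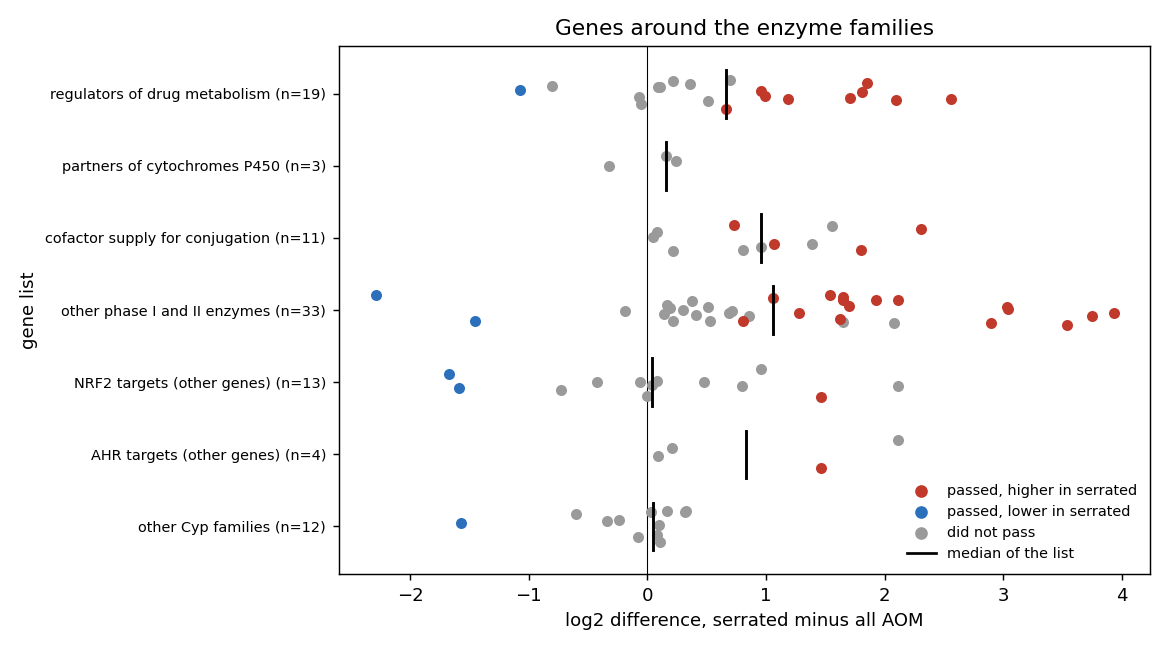
Log2 difference between serrated and all AOM tumors (horizontal axis) for genes of 7 lists around the enzyme families (vertical axis, with the number of measured genes). Each point is 1 gene, red or blue where it passed and grey where it did not, and black bars are list medians. The medians of the regulators, cofactor genes and other enzymes lie at 0.66, 0.96 and 1.06, and that of the NRF2 targets at 0.04.

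Markers of several cell types moved with these genes. Their counts are to be read against the 3.62% of all genes that rose and the 5.76% that fell. The mean log2 signal of 9 stomach markers was 5.84, 9.38 and 9.48 on the serrated arrays and 3.33 to 3.74 on the AOM arrays, and 6 of 9 rose. Serrated replicate 1 was the lowest of its group here, as it was for 12 of the 19 risen members, Cyp2c55, Cyp2c65, Sult1c2 and Sult1d1 among them. For 4 others, Cyp1b1, Cyp2d34, Sult1a1 and Gstt1, it was the highest serrated array. For 12 markers of small-intestinal enterocytes the mean was 6.61, 6.27 and 5.32 on the serrated arrays and 3.41 to 3.75 on the AOM arrays, and 6 rose. For 8 colonocyte markers it was 9.33, 9.54 and 9.04 against 5.67 to 7.79, and 6 rose, while 8 epithelial markers had 10.29, 10.53 and 10.59 against 9.77 to 10.03, and 2 rose.

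Macrophage markers were lower, with 6 of 8 fallen and means of 4.79, 4.85 and 5.61 on the serrated arrays against 5.94 to 6.73, as were 3 of 8 fibroblast markers. The part of these cell types in the enzyme differences was not tested, and in bulk tumor RNA fewer cells of a type and less RNA per cell cannot be told apart. None of 11 hepatocyte markers passed in limma, and their mean was 2.91 to 3.32 on the serrated arrays and 2.69 to 3.06 on the AOM arrays, and 2 had an unadjusted p under 0.05. Albumin (Alb) read 3.25, 3.48 and 4.33 on the serrated arrays and 2.51 to 5.85 on the AOM arrays. Of the smooth muscle, endothelial and lymphocyte markers none passed in limma (2, 0 and 1 at an unadjusted p under 0.05), and 1 of 6 adipocyte markers rose. Over all 19938 genes 3.62% rose, 5.76% fell and 4933 had an unadjusted p under 0.05.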

How the data were processed

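The deposited values are log2 signals that the authors made with RMA and GCOS, per the submitters' processing notes. Their versions and settings are not given in the sources used here. Of 35557 probe sets in all, 21789 had exactly 1 gene symbol. For genes with several such probe sets the one with the highest mean over the 8 arrays was used, which left 19938 genes. All 108 members matched RefSeq (GRCm38.p6) by Entrez ID, with the same symbol. Probe sets with several symbols were not tested.

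Group means of the 3 tumor groups were fitted in 1 limma model (limma 3.58.1, R 4.3.3) with 5 residual degrees of freedom and 1 spread per gene for all groups. P-values were adjusted by Benjamini-Hochberg over all genes of a comparison, and every p on a gene comes from limma. Nothing in the labels says whether the tumors of a group came from different animals. A p-value therefore sets a group difference only against the spread of these samples, 1 array per tumor. That spread need not be the spread between animals. Replicate numbers follow the order of deposition. The number of arrays limits the precision.

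On simulated data for serrated against all AOM tumors (19938 genes, 5 runs, 200 changed genes) the fit recovered 44% of 2-fold and 88.8% of 4-fold changes. Of its calls 4.49% were false. The simulated noise was normal and independent, with 1 spread per gene for all groups. The tumors did not always have such equal spread: for Cyp2c55 the SD was 2.29 in serrated and 0.23 in K-rasG12D AOM tumors. These rates therefore describe the simulated data only.

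The members, gene lists and marker lists were chosen with earlier results of these data known. Named were a set list of well-known members, every member past the threshold in serrated against all AOM tumors, the brightest member of families without one, and up to 3 genes of smallest adjusted p per pathway list. Other genes named, among them neighbours of these genes, genes whose promoter held a match and members past an unadjusted p alone, were picked once their values were known. Among the lists, some shared genes: Aldh3a1 and Nqo1 stood among the NRF2 and the AHR targets, Gclc and Gclm among the NRF2 targets and the cofactor genes, and Ahrr among the regulators and the AHR targets. Alternatives were the trend and robust options, array weights, leaving out the dimmest 40% of genes, quantile normalization, median centring, the mean of a gene's probe sets, the AOM arrays as 1 group, and leaving out each array. Promoter windows came from a RefSeq table.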

Additional observations from a re-analysis of the deposited data

How the results depend on the processing

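No paired analysis was possible because the labels give the groups no shared replicate numbers. The alternatives for genes of the lists were chosen after seeing the data. Array weights, whose estimation did not converge and gave serrated replicate 2 a weight of 25.6 against 0.168 and 0.251 for the other serrated arrays, raised the counts of higher and lower members to 51 and 10 against all AOM tumors, 51 and 8 against K-rasG12D AOM tumors, and 36 and 5 against LSL AOM tumors. Leaving out 1 array gave 7 to 22 higher and 2 to 4 lower members against all AOM tumors, 4 to 20 and 1 to 5 against K-rasG12D AOM tumors, and 2 to 17 and 1 to 4 against LSL AOM tumors. Between the AOM groups the counts of members were 0 under all alternatives run. Without the dimmest 40% of genes 41 members were tested, and 16 were higher and 3 lower against all AOM tumors. Of all genes tested there, 6.21% were higher and 11.4% lower. Calls against all AOM tumors also ended after quantile normalization for Cyp1b1 (adjusted p = 0.0661), Cyp2c23 (0.0919), Ugt2b5 (0.0701), Slc26a1 (0.0712) and Aldh3a1 (0.0897), with the trend and robust options for Cyp1b1 (0.0505) and Gstt1 (0.0537), after median centring for Cyp2j6 (0.0522), and with the AOM arrays as 1 group for Cyp2j6 (0.0501), Cyp4f40 (0.0501), Hmox1 (0.0537) and Aldh3a1 (0.061). These adjusted p-values come from limma. In serrated against all AOM tumors, Cyp1a1 turned to -0.23 with array weights and -0.04 after quantile normalization, and Gstp1 to 0.14 after quantile normalization. With 1 array left out, Cyp1a1 ran from -0.06 to 0.28, Cyp2e1 from -0.01 to 0.36, Gstp1 from -0.28 to 0.11, and the P450 partners Cyb5a from -0.23 to 0.76 and Cyb5b from -0.21 to 0.78. Between the AOM groups, where none of these passed, Cyp2s1 turned to -0.02 after quantile normalization and -0.05 after median centring, Sult1c2 to 0.10 with array weights, and Ugt2b5 to -0.06 with array weights and -0.06 after median centring. With 1 array left out there, the ranges that crossed 0 were Cyp1a1 -0.13 to 0.05, Cyp2c23 -0.05 to 0.29, Cyp2c55 -2.84 to 0.03, Cyp2c65 -1.39 to 0.77, Cyp2c66 -0.18 to 0.08, Cyp2d34 -0.74 to 0.05, Cyp2s1 -0.21 to 0.37, Cyp3a11 -0.29 to 0.02, Cyp4f14 -0.22 to 0.41, Gstm3 -0.11 to 0.44, Gstp1 -0.20 to 0.30, Sult1b1 -0.04 to 0.78, Sult1c2 -0.32 to 0.22, Sult1d1 -0.89 to 0.06 and Ugt2b5 -0.08 to 0.11. The causes were not tested.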

Other observations

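Probe sets with several symbols fell outside the tested genes, and their values are given without a test. The Ugt1a genes, which glucuronidate bilirubin, phenols and many drugs and share their last exons, were read by 1 probe set with 8 symbols. It read 6.66, 7.78 and 7.54 on the serrated arrays, 4.02, 4.95 and 4.82 on the K-rasG12D AOM arrays, and 4.58 and 4.57 on the LSL AOM arrays, so that all serrated arrays lay above all AOM arrays. One of 4 probe sets shared by Gsta1 and Gsta2, alpha class transferases, read 7.88, 10.64 and 10.26 on the serrated arrays, 5.78, 8.10 and 6.31 on the K-rasG12D AOM arrays, and 4.41 and 4.75 on the LSL AOM arrays. Serrated replicate 1 lay below K-rasG12D AOM replicate 2 there. A probe set shared by Gstp1 and Gstp2 read 7.02, 7.89 and 8.42 on the serrated arrays and 7.58 to 8.73 on the AOM arrays, which overlapped. The probe set shared by 4 Cyp2c genes of the cluster read 2.65, 3.21 and 3.27 on the serrated arrays and 1.92 to 2.65 on the AOM arrays, all dim. The second probe set of Gstm3 read 4.73, 6.55 and 7.54 on the serrated arrays and 4.62 to 5.60 on the AOM arrays, with serrated replicate 1 lowest of its group as on the first.

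Cyp2f2, known from airway epithelium, was bright on 1 array alone. It read 8.24 on serrated replicate 2, against 3.84 and 2.43 on the other serrated arrays and 2.67 to 3.70 on the AOM arrays (1.82 ± 1.08, limma adjusted p = 0.337). The gene was chosen after its values were seen.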
